A study of Mus musculus with 2 samples.

Results

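The subject is the set of 1-kb bins that are crowded with reads in the whole-cell extract of mouse embryonic stem cells. A bin is a member when it holds 15 or more extract reads after each read's 5′ end is moved about 0.10 kb towards its 3′ end, to the middle of a typical fragment. On chromosomes 1 to 19, 284 of the 1935906 bins holding a read of either library are members. The extract read counts chose these bins, so those counts are a description and are not tested. The bins just inside and just outside the limit were 30 bins with 15 extract reads and 64 bins with 14.

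The data are 1 library of DNA immunoprecipitated (ChIP) with an antibody against CTCF, a zinc-finger protein that marks insulators and loop ends, and 1 library of whole-cell extract. Both were made from the male V6.5 line, whose genotype is 129SvJaexC57BL/6, at passages between 10 and 15. The cells were grown on irradiated mouse embryonic fibroblasts and then passaged on gelatin to remove them. The libraries went through 15 cycles of PCR. Chromosomes 1 to 19 held 2325631 ChIP reads and 4592161 extract reads, a mean of 1.20 and 2.37 reads per bin. With 1 library per group, differences below are between these libraries, and the 95% intervals (exact Clopper-Pearson) cover counting error only. The files hold reads and no expression, so cell identity was not checked against markers.

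Whole-cell extract is sonicated chromatin taken before immunoprecipitation, and it serves as the background for calling binding sites. Reads of such a control are usually spread over the genome, apart from places where many near-identical copies of a sequence are represented by few copies in the assembly, or where chromatin shears easily. Which of these holds for any bin below was not tested. Mouse chromosomes are acrocentric: the centromere with its satellite repeats lies at one end, and the assembly holds a gap there before the first sequenced bases. Gene annotation and sequence of the mm8 build were not used here, so the bins are given by position alone.

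The crowded bins held few of all reads but a large excess for their number. They made up 0.0147% of the bins and held 11194 extract reads, or 0.244% of the extract (95% interval 0.239 to 0.248). The same bins held 4676 ChIP reads, or 0.201% of the ChIP library (0.195 to 0.207). The median member held 25 extract reads, the middle 50% of members held 18 to 47.25, and the highest held 258.

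**Figure D1:**
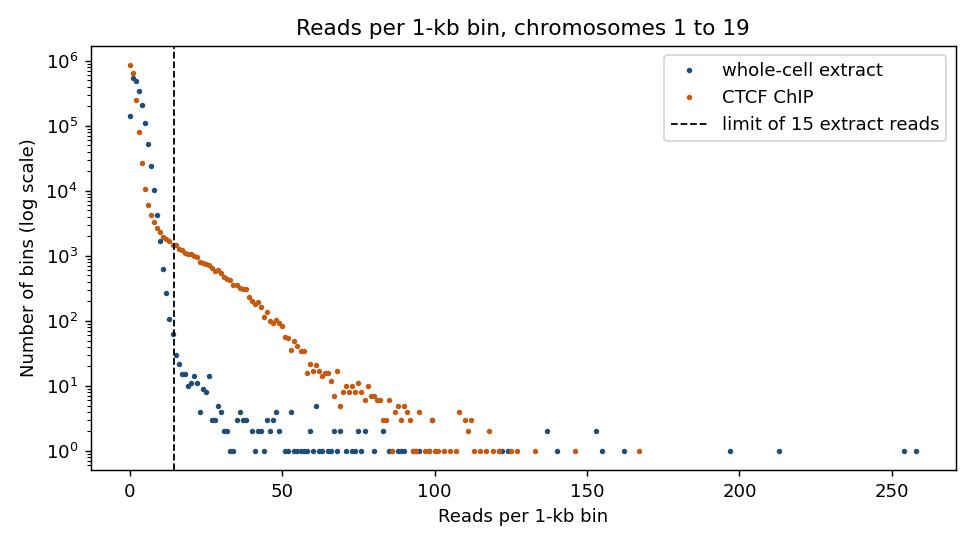
Number of 1-kb bins (log scale) against reads per bin for the whole-cell extract (blue) and the CTCF ChIP (orange) on chromosomes 1 to 19; the dashed line marks the limit of 15 extract reads. The extract falls steeply to the limit and continues as a thin tail up to 258 reads, while many more bins hold 15 or more ChIP reads.

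The bins with the most extract reads came from few places. The 20 highest members held 94 to 258 extract reads and 22 to 167 ChIP reads, and they lay in 5 groups, a group being members at most 10 kb apart. Chromosome 11 gave 9 of them, chromosome 17 gave 5, chromosome 2 gave 3, chromosome 5 gave 2 and chromosome 14 gave 1. The highest bin, on chromosome 17 from 39452001 to 39453000, held 258 extract reads, which is 109 times the mean bin, and 81 ChIP reads. The next, on chromosome 5 from 3000001 to 3001000, held 254 extract and 125 ChIP reads. The third, on chromosome 14 from 18209001 to 18210000, held 213 and 82. These bins were high in both libraries. Each file holds at most 1 read per position and strand, so a bin has 2000 places for reads, and the highest bin had filled 12.9% of them.

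Members were strongly grouped. The 284 bins formed 56 groups, of which 6 held 7 or more bins and together 205 members (72.2%). Another 13 groups held 2 to 6 bins and 42 members, and 37 members stood alone. The 10 groups with the most reads held 222 members and 85.2% of all member extract reads. The other 46 groups held 62 members, with 15 to 150 extract reads per group.

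Position at the start of a chromosome marked a large share. Within 100 kb of the first read of a chromosome lay 100 members (35.2%) in 6 groups, with 5695 extract reads or 50.9% of all member reads. They were on chromosomes 11 (71 bins), 9 (19), 4 (6), 5 (3) and 18 (1). The chromosome 18 bin, from 3005001, held 30 extract and 57 ChIP reads. The other 14 chromosomes had no member there, so crowding beside the first sequenced bases was not general. Chromosomes 7 and 19 had no member at all, and chromosome 1 had the most with 93. Of those 93, 69 lay in a single group, and the extract averaged 3.05 reads per bin on chromosome 1 against 2.37 over chromosomes 1 to 19. Chromosomes 6, 10 and 16 had 1 each, the fewest among chromosomes with a member. The bins from 3000001 to 3001000 on chromosomes 5 and 9 were members that contain the first read of their chromosome. The chromosome 9 bin held 45 plus-strand and 15 minus-strand reads. The bin before it, from 2999001 to 3000000, held 0 plus and 16 minus reads. Minus-strand reads are moved leftward, which puts some of them before the first sequenced base. Within 100 kb of the last read lay 3 members, all on chromosome 2.

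The largest group lay on chromosome 11 from 3030001 to 3100000, starting 29.7 kb from the first read. It held 68 members in 70 bins, with 4208 extract reads (37.6% of all member reads) and 1742 ChIP reads. Extract counts in its members ran from 16 to 140 with a median of 59 (SD 27.2 over 68 bins). The 2 bins between them held 12 and 14 reads, so this stretch was crowded throughout. Across its 68 bins, extract and ChIP counts had a Pearson correlation of 0.63 and a Spearman correlation of 0.77. In the 69 bins of the 96-kb chromosome 1 group described next these were 0.14 and 0.20, in the 26 bins of the 36-kb chromosome 17 group 0.48 and 0.34, and in the 14 bins at 173362001 on chromosome 1 -0.41 and -0.46. Members had to reach 15 extract reads, and in the chromosome 1 and chromosome 17 groups they ran only to 34, 29 and 26. A range cut in this way weakens a correlation, so these values cannot be set against those of the chromosome 11 group. Bins of a group are neighbours within the same 2 libraries and are no replicates.

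Other long groups held lower counts. On chromosome 1 from 90043001 to 90139000, 69 of 96 bins were members. Their extract counts ran from 15 to 34 with a median of 21 (SD 4.43 over 69 bins), and the 27 bins between them had a median of 10. On chromosome 17 from 6374001 to 6410000, 26 of 36 bins were members, with 15 to 29 extract reads and a median of 20 (SD 3.4). Nearby on chromosome 17, from 6201001 to 6216000, 9 of 15 bins held 15 to 28 reads with a median of 16. On chromosome 1 from 173362001 to 173405000, 14 of 43 bins held 15 to 26 reads with a median of 18. In these groups the limit of 15 cut through a raised plateau, so the members are its upper part. The SDs leave out the bins between them and are narrowed by that cut.

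Other groups were short and tall. On chromosome 17 from 39451001 to 39457000, 5 of 6 bins were members, with 137 to 258 extract reads, and the bin between them held 10. On chromosome 2 from 98463001 to 98469000, all 6 bins were members, with 15 to 155 reads. On chromosome 5 from 3000001 to 3003000, 3 bins held 38 to 254 reads, and on chromosome 14 from 18208001 to 18211000, 3 bins held 22 to 213. The chromosome 9 group from 2999001 to 3037000 was of a mixed kind. In it 19 of 38 bins were members with 15 to 83 reads, and the bins between had a median of 0.

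**Figure D2:**
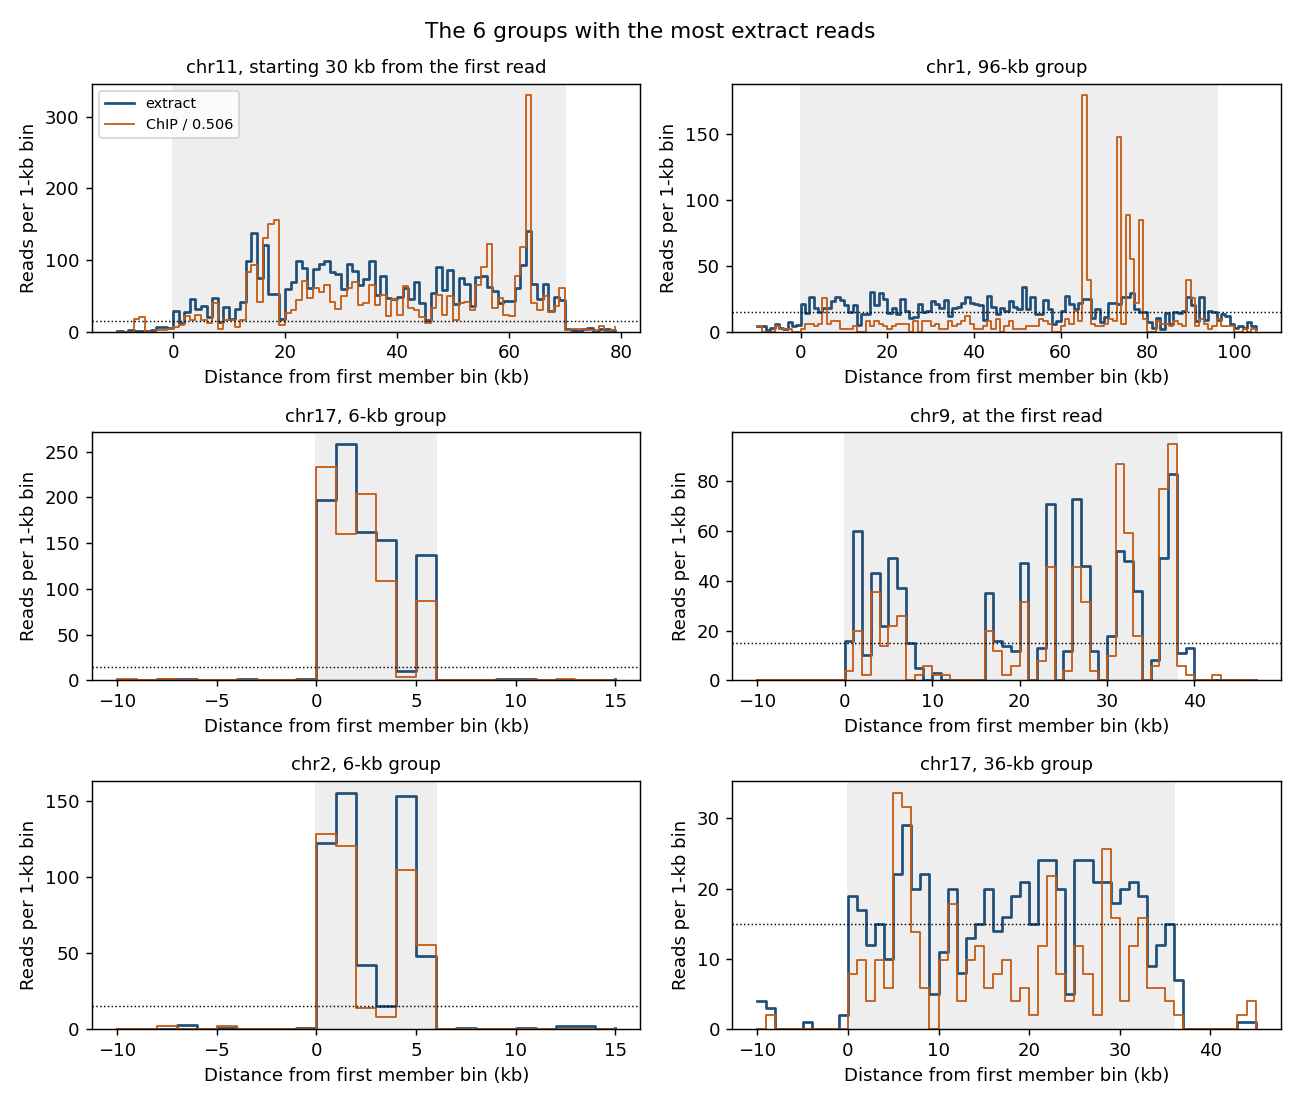
Extract reads (blue) and ChIP reads divided by the ratio of library totals, 0.506 (orange), per 1-kb bin across the 6 groups with the most extract reads; the x axis is the distance in kb from the first member bin, grey marks the group and the dotted line 15 reads. The chromosome 11 and chromosome 1 groups and the 36-kb chromosome 17 group are long plateaus, the 6-kb groups on chromosomes 17 and 2 rise from nearly empty flanks. In the chromosome 1 group the median member holds 3 ChIP and 21 extract reads, apart from a few narrow ChIP spikes.

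The surroundings of grouped members were raised as well, which in part restates the grouping. In the 10 kb on each side, without the bin itself, the median member had 17.25 extract reads per kb, against 2.10 around all bins with an extract read and 3.25 around bins with 10 to 14. Members standing alone had a median of 2.55 (0.45 to 5.7), little above the value around all bins. Groups of 7 or more bins had 18.3. The 10 kb on each side include other members where there are any. A member standing alone has none there by definition, so the low value of lone members partly follows from the grouping.

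Crowding of the extract was largely shared by the ChIP library, whose reads the rule did not use. At least 8 ChIP reads, about the same multiple of the ChIP mean as 15 is of the extract mean, fell in 145 members (51.1%), against 1.82% of all bins holding a read and 8.24% of bins with 10 to 14 extract reads. The share rose with the extract count. It was 21.7% of the 92 members with 15 to 19 extract reads and 38.1% of the 105 with 20 to 39. It was 96.6% of the 58 with 40 to 79, and all 29 with 80 or more held at least 16 ChIP reads. The 62 members with 8 or more ChIP reads that lie farther than 100 kb from a first read were 33.7% of the 184 bins there, against 83% of the 100 bins near one. The bins near one also held more extract reads, a median of 48.5 against 20. Of the 83 such bins near a first read, 63 lay in the chromosome 11 group from 3030001.

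No ChIP read fell in 7 members (2.46%), against 27.5% of bins with 10 to 14 extract reads and 47.9% of all bins with an extract read. These 7 held 15 to 21 extract reads. A count of 0 allows up to 3 reads. Over all 284 members, extract and ChIP counts had a Pearson correlation of 0.72 and a Spearman correlation of 0.68, a description across bins that share the same libraries.

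The ChIP-to-extract ratio is the ChIP reads over the extract reads, divided by the ratio of the library totals. Summed over members it was 0.825 (95% interval 0.797 to 0.854). In bins with 10 to 14 extract reads it was 0.651 (0.636 to 0.666), and in bins with 5 to 9 it was 0.656. The choice of bins by a high extract count lowers this ratio. Over the 244 members that also passed on lane 1 alone, counted in lane 2, it was 0.885, a setting chosen after seeing the data. Reads of lane 2 still took part in making these bins members, so this setting does not remove that lowering. Over the 433 bins chosen on lane 1 alone, members or not, the ratio was 0.946 in lane 2. The side of 1 depends on the scaling: scaled by reads outside the crowded bins of either library the ratio was 1.14. Scaled by 10-kb bins with no more ChIP reads than the median of such bins, it was 1.61. Both scalings leave out bins by their high ChIP count, which raises the ratio by construction. By single bins the median was 0.53, and the middle 50% ran from 0.28 to 0.83.

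Single members spread widely around that value. The interval of the ratio lay wholly below 1 in 110 members (38.7%), against 0.0454% of all bins holding a read and 27.9% of bins with 10 to 14 extract reads. It lay wholly above 1 in 20 members (7.04%), against 2.32% of all bins and 6.54% of bins with 10 to 14 extract reads, a share near the latter. In 154 members it included 1. A bin with few reads seldom reaches an interval below 1, so the first share over all bins is low by construction.

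**Figure D3:**
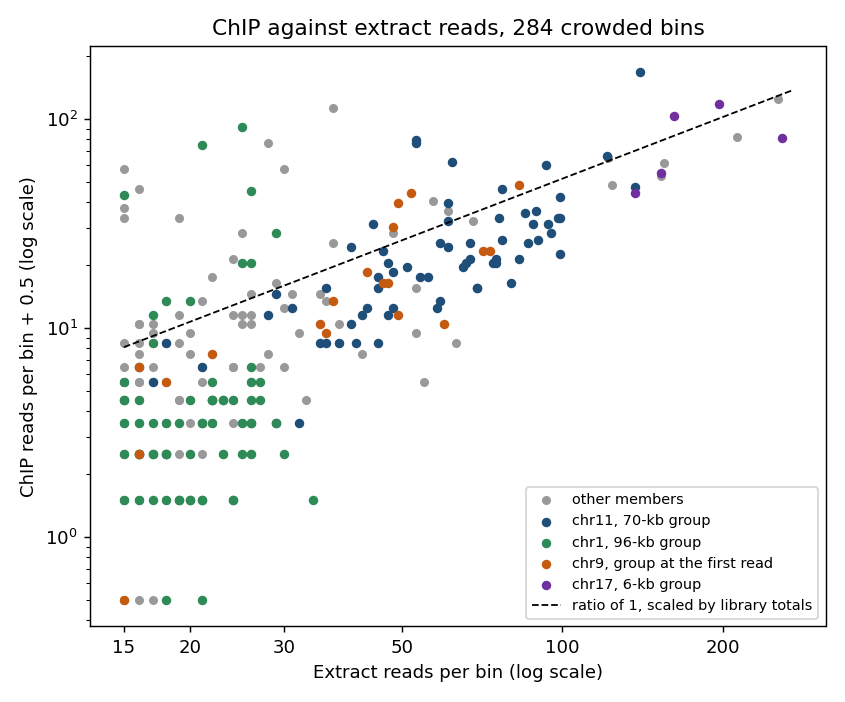
ChIP reads plus 0.5 against extract reads per bin for the 284 members, both axes logarithmic, with 4 groups coloured; the dashed line is a ratio of 1 by library totals. Above about 40 extract reads nearly every member holds 8 or more ChIP reads, while most bins of the chromosome 1 group lie below the line at a few ChIP reads and a handful lie far above it.

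Each group can be set against its own chromosome, since the extract was raised over chromosome 1. Outside crowded bins of either library, the ratio was 0.495 on chromosome 1, 0.621 on chromosome 4 and 0.729 to 0.849 on the other autosomes. Over all its members, the 6-kb chromosome 17 group held 78.3 times the extract reads and 89.2 times the ChIP reads per bin of such bins on its chromosome. For the chromosome 5 group these values were 60.2 and 67.1. For the chromosome 2 group at 98463001 they were 38.8 and 41.3, and for the chromosome 14 group 40.1 and 41.2. The ratio over that of these outside bins was 1.14 (1.01 to 1.28) in the chromosome 17 group, and 1.12 (0.931 to 1.33), 1.06 (0.905 to 1.25) and 1.03 (0.807 to 1.30) in the other groups, whose intervals include 1. The side of 1 rests on that background. Over the ratio of the whole chromosome, ChIP-rich bins included, the same 4 groups gave 0.788, 0.775, 0.762 and 0.785, with intervals below 1.

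The longer groups differed among themselves. Against the outside bins of its chromosome, the chromosome 11 group held 25.3 times the extract and 25.7 times the ChIP reads per bin, a relative ratio of 1.02 (0.960 to 1.07). The 96-kb chromosome 1 group held 6.95 and 9.93 times, a relative ratio of 1.43 (1.29 to 1.58). The 36-kb chromosome 17 group held 8.65 and 6.71 times, 0.776 (0.645 to 0.930). The chromosome 9 group at the first read gave 1.06 (0.929 to 1.20), the chromosome 1 group at 173362001 gave 0.765 (0.556 to 1.04), and the chromosome 17 group at 6201001 gave 0.994 (0.728 to 1.34).

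A few bins set these values in 3 of the groups. Without the 5 members of the 96-kb chromosome 1 group whose interval lay above 1, its relative ratio was 0.708 (0.614 to 0.814), on the other side of 1. Without 4 such bins the chromosome 11 group gave 0.854 (0.803 to 0.909), and without 2 the chromosome 9 group gave 0.905 (0.780 to 1.05). These bins were left out by their ChIP reads, which lowers the ratio by construction. Over the ratio of the whole chromosome, all members of the chromosome 1 group gave 1.09 (0.980 to 1.20), of the chromosome 11 group 0.675 and of the 36-kb chromosome 17 group 0.537. Members had to reach 15 extract reads but no number of ChIP reads, which lowers the ratio most where counts lie near the limit.

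The 5 members with the highest ratios are named next. By that ordering they hold more ChIP reads than other members of like extract count. The highest ratio was on chromosome 8 from 124580001 to 124581000, with 57 ChIP and 15 extract reads (7.5-fold, 4.19 to 14.3). Inside the 96-kb chromosome 1 group, the bins from 90108001 and from 90116001 held 91 and 75 ChIP reads over 25 and 21 extract reads (7.19-fold, 4.57 to 11.7, and 7.05-fold, 4.3 to 12.0). In the same group the median bin held 3 ChIP reads. The bin on chromosome 1 from 136925001 held 46 ChIP and 16 extract reads (5.68-fold, 3.15 to 10.7). The bin on chromosome 1 from 196942001 held 112 and 37 (5.98-fold, 4.09 to 8.92).

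The 7 members without a ChIP read have a ratio of 0. Of these, 2 lay in the same chromosome 1 group, with 18 and 21 extract reads, and 5 lay on chromosomes 4, 8, 9 and 18. For ordering, bins with 0 ChIP reads were given 3 counts, and the 5 lowest ratios named by that order rest on it. They are the bins of the chromosome 1 group from 90094001, 90052001, 90076001, 90043001 and 90083001, which held 34, 24, 24, 21 and 21 extract reads and 1 ChIP read each. The first of them had a ratio of 0.058 (0.0014 to 0.346). The same 96-kb stretch held 2 of the 5 highest ratios.

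The members with the most ChIP reads were mostly the tall ones. The bin on chromosome 11 from 3093001 held 167 ChIP and 140 extract reads (2.36-fold, 1.87 to 2.97), and the bin on chromosome 5 from 3000001 held 125 and 254 (0.972-fold, 0.778 to 1.21). The bins on chromosome 17 from 39451001 and 39453001 held 118 and 103 ChIP reads over 197 and 162 extract reads (1.18-fold, 0.933 to 1.49, and 1.26-fold, 0.971 to 1.62). Ratios of 3 of these 4 bins include 1, and the bin on chromosome 1 from 196942001 completes the 5.

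By the median over bins, reads of the ChIP lay more evenly in members than in ChIP-rich bins outside them. The densest 200 bp held a median of 50% of the ChIP reads in the 62 members with 15 to 40 ChIP reads (middle 50% of bins 40 to 69.1). In the 17975 other bins with 15 to 40 ChIP reads it held 76.7% (69.2 to 83.3). Those bins have under 15 extract reads and were picked by their ChIP count, so they are rich in ChIP over extract. The summed ratio of bins with 8 or more ChIP and under 15 extract reads was 12.2. The contrast is therefore with such bins and is in part set by how they were picked. Most of the 62 members were neighbouring bins of the chromosome 11 group, so their median rests largely on that group. Single members on chromosome 9 went both ways, with 47.8% in the bin from 3022001 and 96.9% in the bin from 35054001. In the 20 members with an interval above 1 the densest 200 bp held 72.9%. Around those 20, the median minus-strand 5′ end lay 167 bp downstream of the median plus-strand end in the ChIP (middle 50% of bins 51.4 to 200). Around the other 141 members with at least 5 reads of each strand within 2 kb, it lay 34.5 bp downstream (-172 to 183). In the extract the same distance was 85.8 bp around those 20 (-116 to 209.5) and 28.2 bp around the 264 other members (-122 to 170), so the middle 50% overlapped in both libraries.

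The libraries also met at single positions, and here the groups fell apart into kinds. Of the ChIP reads in members, 905 (19.4%) began at a position and strand that also held an extract read. The product of the densities in each bin gives 3.85%. Over all bins holding a read the shares were 0.207% and 0.144%, and over bins with 8 or more ChIP and under 15 extract reads 0.208% and 0.169%. The product takes reads as evenly spread within a bin, so narrow bins exceed it for that reason also.

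In the chromosome 9 group at the first read, 230 of 330 ChIP reads (69.7%, 95% interval 64.4 to 74.6) began on an extract position, against 2.8% by the product. In the chromosome 2 group at 98463001 the share was 68.3% (61.7 to 74.5) against 6.31%. In the chromosome 5 group it was 68.5% (61.2 to 75.2) against 10.4%. In the chromosome 14 group it was 52.5% (42.2 to 62.7) against 8.91%. Most ChIP reads of these groups thus repeated positions already seen in the extract.

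In the long groups on chromosomes 1 and 17 they did not. The chromosome 9 group above spans 38 kb, so length alone did not separate the kinds. The share was 1.16% (0.426 to 2.5) in the 96-kb chromosome 1 group, where the product gave 1.12%. It was 0.637% (0.0161 to 3.5) in the 36-kb chromosome 17 group, against 1.07%. In the groups at 173362001 on chromosome 1 and at 6201001 on chromosome 17, 0 of 51 and 0 of 61 ChIP reads did so, which allows up to 6.98% and 5.87%. The chromosome 11 group with 5.86% (4.8 to 7.06) against 3.89%, and the 6-kb chromosome 17 group with 14.7% (11.4 to 18.6) against 9.46%, lay between. Reads in those 2 groups filled many places without repeating most of them.

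Of the 27 groups with at least 20 ChIP reads, 16 had an interval above the product and 6 had a share over 50%. The 2 of these 6 outside the 10 largest groups lay on chromosome 9, from 35054001 to 35056000 (69.6%, 54.2 to 82.3) and from 24292001 to 24293000 (85%, 70.2 to 94.3). They are named after their values were seen. By single bins with 8 or more ChIP reads, 46 of 145 members exceeded the product, against 1.06% of all bins with that many ChIP reads. Such bins with under 15 extract reads held 3.16 extract reads on average, which leaves few positions to share. Part of the gap thus follows from the extract count that chose the members.

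**Figure D4:**
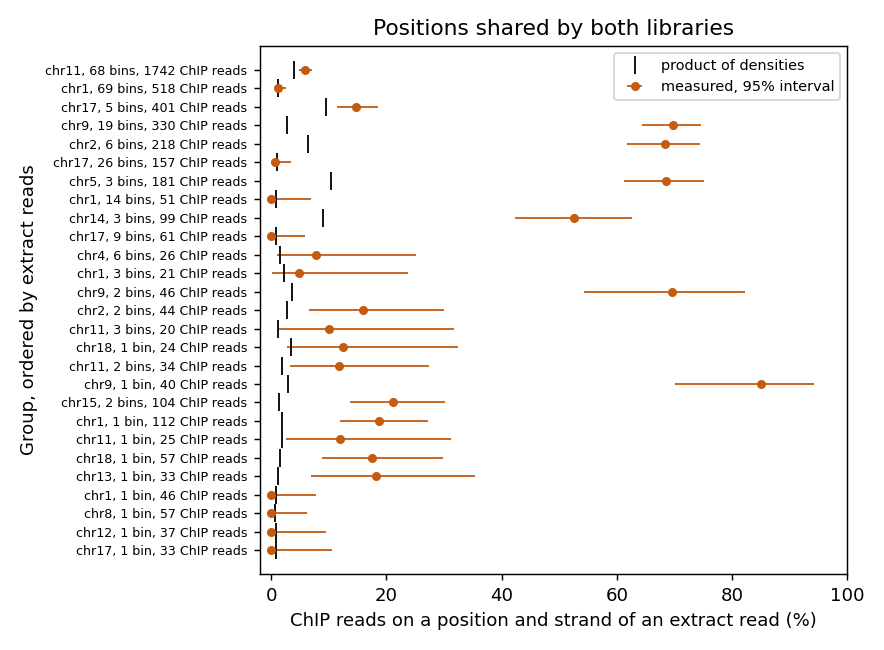
Share of ChIP reads that begin on a position and strand also holding an extract read (orange, with 95% interval) and the product of densities (black tick) for the 27 groups with at least 20 ChIP reads, ordered by extract reads. Shares over 50% are seen in 6 groups, while the long groups on chromosomes 1 and 17 lie at the product.

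Strands were balanced over the members as a whole. Plus-strand reads made up 50.1% of extract reads (49.2 to 51.1) and 49.9% of ChIP reads (48.5 to 51.3). Near the first read the extract share was 52.2% (50.9 to 53.5), and farther away 48.0% (46.7 to 49.4). These intervals do not overlap, but they pool reads and leave out the spread between groups. Groups near a first read ran from 39.3% on chromosome 4 to 56% in the chromosome 11 group from 3001001. A strand difference by distance from the first read was not tested. Bin by bin, an exact two-sided binomial test with Benjamini-Hochberg adjustment over the 94657 bins with at least 6 extract reads called 1 member, against 0.00106% of all bins tested, and it was the only bin called. The bin spans 35054001 to 35055000 on chromosome 9, with 11 plus- and 57 minus-strand extract reads (exact binomial test, adjusted p = 0.00121).

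That call was absent with no shift (30 plus and 35 minus reads), with a shift of 75 bp (16 and 57, adjusted p = 0.0722 by the same exact test) and with bins starting at position 500 (40 and 63 from 35054501). The next bin, from 35055001, held 29 plus and 6 minus reads, an imbalance of the opposite sign. With bins starting at position 500, 4 bins elsewhere were called, and with the test run on bins of at least 10 reads, 11 members were, the chromosome 9 bin from 35054001 among them. At an unadjusted p under 0.05 by the same exact test, 31 members (10.9%) were unbalanced, against 2.58% of all bins tested and 2.18% of bins with 10 to 14 reads. A bin with more reads passes more easily. The chromosome 9 group at the first read gave 7 of its 19 bins, and the chromosome 11 group 3 of 68. The 7 include the bin from 2999001 with 0 plus and 16 minus reads, which is also among the 11 members above. That bin lies before the first sequenced base, where the shift can place only minus-strand reads, so its imbalance is set by the shift. In the ChIP, 1 of the 161 members with at least 6 ChIP reads was called, against 0.00876% of all such bins. It is the bin on chromosome 1 from 196942001, with 26 plus and 86 minus reads (exact binomial test, adjusted p = 0.000251), whose extract reads were split 19 to 18.

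**Figure D5:**
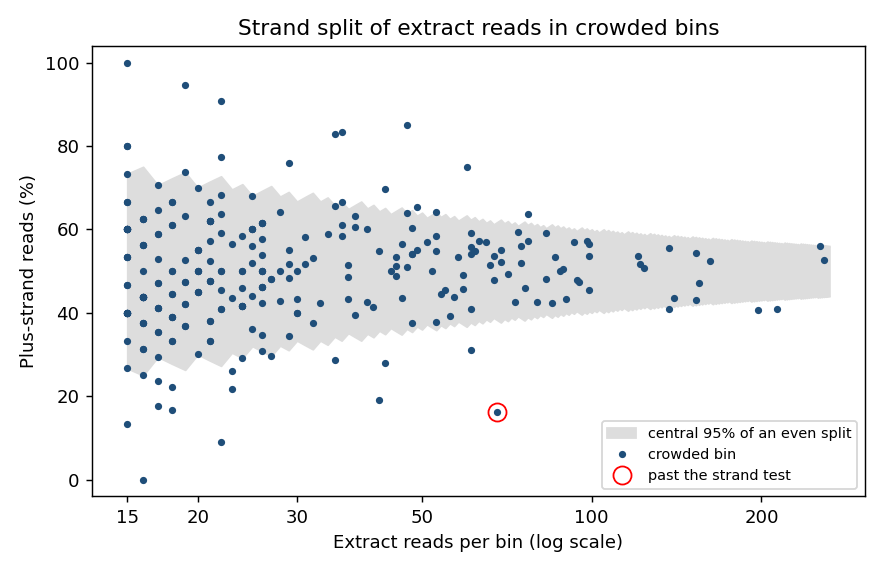
Share of plus-strand extract reads against extract reads per bin (log scale) for the 284 members; grey marks the central 95% of an even split and the red circle the member past the strand test. Most members lie in the grey band, and 31 have an unadjusted p under 0.05 in the exact binomial test.

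Both extract lanes carried the crowding. Bins chosen by 9 or more reads of lane 1 numbered 433 and held 11.2 lane 2 reads per bin, 10.3 times the mean of 1.09. Bins chosen by 7 or more reads of lane 2 numbered 1258 and held 6.57 lane 1 reads, 5.14 times the mean of 1.28.

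The lanes were not equal in members. Lane 1 gave 56.4% of member reads (55.5 to 57.4), against 53.9% of all extract reads. In the 46 members that exceeded the product of densities it gave 59.5% (57.7 to 61.3), and in the other 99 members with 8 or more ChIP reads 55.4% (54.1 to 56.8). A position seen in both lanes appears once in the file. The part of that in the lane shares was not tested.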

How the data were processed

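The files deposited by the authors list each aligned read with its position, its strand and a name whose leading numbers give the lane (1 ChIP lane, 2 extract lanes). Per the submitters' processing notes the build was mm8. Which aligner was used is not given in the sources used here. All reads were 36 bases long, and 0 combinations of position and strand were repeated in either file, so PCR copies cannot be counted. Starts were taken as counted from 0 and are printed from 1, so positions may be off by 1 bp.

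Reads on chromosomes 1 to 19 were counted in 1-kb bins from position 0 after a shift of about 0.10 kb. Members with 15 or more extract reads were joined into groups when at most 10 kb apart. Ratios were scaled by library totals (0.506). Position sharing was read on unshifted 5′ ends. Strand splits were tested by an exact binomial test with Benjamini-Hochberg adjustment. Bins named are the 20 with the most extract reads, 10 groups, the 5 highest and 5 lowest ratios, the 5 with the most ChIP reads, those past the strand test, the chromosomes with the most and fewest members, and the bins that hold a first read. The shift, members and comparisons were chosen with earlier results of these data known. The binning and tests recovered planted bins, groups and strand splits in simulated data. The planted bins lay far above the limit on an even background, so recovery near the limit was not checked. Python 3.11.15, numpy 2.4.6, scipy 1.17.1 and pandas 2.3.3 were used.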

Additional observations from a re-analysis of the deposited data

Results flagged for a closer look

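Chromosome X was outside the comparisons above, and 22 of its bins held 15 or more extract reads. Of these, 21 lay between 165314001 and 165342000, 175 kb before the last read of the chromosome, with 17 to 44 extract reads each. Together they held 535 extract and 268 ChIP reads, a ratio of 0.989 on the scaling used for chromosomes 1 to 19 (95% interval 0.851 to 1.15). In this group 3 bins held 38, 62 and 90 ChIP reads, and the other 18 held 78 together, a median of 4 per bin. Without those 3, chosen after their values were seen, the ratio was 0.339 (0.263 to 0.431). The other bin, from 72851001 to 72852000, held 50 extract and 19 ChIP reads (0.75, 0.418 to 1.3). The summed ChIP reads of the group and those of the other bin were above the 3 counts that a count of 0 allows. Single bins of the group were not all above it, and the lowest held 0 ChIP reads.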

How the results depend on the processing

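Of 88 recomputed values, 44 stayed within their limits, which are 1.5 times for counts and the 95% interval for other values. The 4 values that leave out bins with ratios above 1, or count members in lane 2 after they pass on lane 1, were chosen after seeing the data. With at least 10 extract reads, there were 3038 bins in 2448 groups with 0.882% of extract reads, a summed ratio of 0.699, a median of 0.198, 372 with 8 ChIP reads and 3.95% near a first read. With at least 20, there were 37 groups with 0.211% of reads and 46.9% near a first read. With the limit scaled by chromosome, members held 0.228% of reads and 41.3% lay near a first read. With bins from position 500 the share of reads was 0.249% and the strand test called 4. It called 0 with no shift or a shift of 75 bp, and 11 from 10 reads. Without bins near a first read, 184 members held 0.120% of reads, with a median ratio of 0.395, 62 with 8 ChIP reads and 0% near it by construction. Chosen on lane 1 and counted in lane 2, there were 433 bins in 222 groups with 0.230% of reads, a ratio of 0.946, a median of 0.607, 23.1% near a first read and 0 strand calls. Chosen on lane 2 and counted in lane 1, there were 1258 bins in 993 groups with 0.334% of reads, a ratio of 0.983, 222 with 8 ChIP reads, 8.43% near a first read and 2 strand calls. Scaled by background bins, the summed ratio was 1.61 and the median 1.03, and scaled by reads outside crowded bins 1.14 and 0.729. Without the largest group the median was 0.446 and the share of reads 0.152%. Without members above 1 the summed ratio was 0.650, and for members passing on lane 1 and counted in lane 2 it was 0.885. Lane 2 reads had also helped to choose the members of that last setting. Apart from settings whose construction sets the value (another limit, fewer bins, 1 lane, another scaling), the cause was not tested. No paired analysis was possible because there was only 1 library of each kind, which also leaves no replicate to drop. Depth limits bins near 15 reads most, where a ratio rests on few ChIP reads.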
